A study of Mus musculus with 12 samples.

Results

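The 10 genes described here encode glutathione S-transferases outside the alpha and mu classes: Gstp1 of the pi class, Gsto1 of the omega class, Gstt1, Gstt2 and Gstt3 of the theta class, Gstz1 of the zeta class, the mitochondrial kappa enzyme Gstk1, and the membrane-bound Mgst1, Mgst2 and Mgst3. They were taken by symbol from the 24318 genes of the deposited table, whatever their values, and all 10 were found. Polyadenylated RNA came from immortalized embryonic fibroblasts of the mouse, a cultured population, with the genotype MafF-/-::MafG-/-::MafK-/-, so that every group lacked the 3 small Maf genes. Cells that carried T-N2G, a tethered heterodimer of Nrf2 and MafG that the genotype labels spell T-NG2, were set against mock cells, and each was given 100 µM diethyl maleate (DEM) or vehicle for 12 h. The 4 groups of 3 libraries are called T-N2G DEM, mock DEM, T-N2G vehicle and mock vehicle. The labels name no promoter, vector or clone for T-N2G. Whether the replicates are separate cultures is not given either, so p-values measure the spread between these libraries, which may be technical.

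Glutathione S-transferases join glutathione to electrophiles or use it to reduce peroxides and other substrates. The cytosolic classes are soluble enzymes, the kappa enzyme works in mitochondria, and the microsomal enzymes belong to a separate family of membrane proteins that also includes enzymes of leukotriene and prostaglandin synthesis. Nrf2 pairs with a small Maf protein to bind antioxidant response elements and is known for inducing many genes of glutathione use. DEM is an electrophile that reacts with glutathione.

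Library totals were 18863560 to 23095692 fragments. The introduced genes were examined first. Nfe2l2, which encodes Nrf2, had 9699 to 14690 fragments in the 6 T-N2G libraries and 949 to 1443 in the 6 mock libraries, and Mafg had 2043 to 3371 in T-N2G and 10 to 19 in mock libraries. The libraries thus divided as labelled, and fragments summed per gene do not tell introduced from endogenous RNA. The summed FPKM (the authors' fragment level scaled by transcript length and library size) of 8 fibroblast markers was 3294 to 3823 in T-N2G DEM, 3899 to 4395 in mock DEM, 3929 to 4604 in T-N2G vehicle and 4112 to 4563 in mock vehicle, lowest in T-N2G DEM, and no fibroblast marker was at 0 in a whole group. The summed FPKM of each list of epithelial, endothelial, blood, muscle or adipocyte markers was at most 5.39, with Adipoq and Plin1 at 0 throughout. The sum of 4 Y-linked genes was 6.37 to 6.80 FPKM in T-N2G DEM, 3.45 to 4.46 in mock DEM, 7.20 to 7.84 in T-N2G vehicle and 4.39 to 5.17 in mock vehicle. T-N2G and mock populations thus differed in more than the introduced genes, and the part of these marker differences in the results was not tested. In such bulk samples, fewer cells of a type and less RNA per cell cannot be told apart.

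The results turned on Mgst1 and Gstp1, and the 250 bases before their annotated starts are shown because an antioxidant response element, if present, could lie there. They come from RefSeq (GRCm38.p6), a later build than the mm9 of the files, and stand 5′ to 3′ on the strand of the gene. Capitals mark matches to TGANNNNGC, the core of the element, on either strand.
Mgst1, chr6:138140277-138140526, + strand: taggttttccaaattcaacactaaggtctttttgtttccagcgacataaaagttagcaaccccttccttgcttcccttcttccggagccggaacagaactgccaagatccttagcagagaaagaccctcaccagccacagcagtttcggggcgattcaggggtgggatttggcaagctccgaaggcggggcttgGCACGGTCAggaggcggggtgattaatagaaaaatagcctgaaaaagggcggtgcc
Gstp1, chr19:4037913-4038162, - strand: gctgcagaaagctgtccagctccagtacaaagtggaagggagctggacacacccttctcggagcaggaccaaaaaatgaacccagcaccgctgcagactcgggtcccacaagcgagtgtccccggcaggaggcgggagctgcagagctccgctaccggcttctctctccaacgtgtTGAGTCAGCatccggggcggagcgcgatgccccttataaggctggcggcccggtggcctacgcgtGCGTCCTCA
The Mgst1 match, GCACGGTCA, lay 56 bases before the start and read TGACNNNGC on the opposite strand. A second annotated Mgst1 start had no match in its window. In Gstp1, TGAGTCAGC lay 74 bases before the start and GCGTCCTCA, on the opposite strand, 9 bases before it, and a further match lay in the transcribed part that is not shown. The RefSeq table held 12 promoter windows of 300 bases for 9 of the 10 genes. TGANNNNGC was found in 7 of these windows, of 5 genes, against 41.3% of all 32851 promoters, and TGACNNNGC in the Mgst1 window alone, against 12.4%. Besides Mgst1 and Gstp1, the genes with a TGANNNNGC match were Gstt1, Gstt3 and Gstz1, and none of these was called higher in any contrast. The Gstt3 windows overlap and share the same match. Every TGACNNNGC match is also a TGANNNNGC match. A match describes letters only and does not show binding.

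Levels among the 10 genes were unequal and kept much of their order in all groups. Gsto1, an enzyme of glutathione-dependent reductions such as that of dehydroascorbate, was the most abundant, with mean levels of 244 ± 53.2 FPKM in T-N2G DEM, 246 ± 39.0 in mock DEM, 236 ± 47.2 in T-N2G vehicle and 235 ± 47.1 in mock vehicle (SD, n = 3 each). It made up 62.8 to 79.4% of the summed FPKM of the 10 genes, depending on the library, and stood at or above percentile 98.4 of all genes. Gstp1 came second, at 9.31 to 16.9% of the sum, and Mgst3 after it, at 5.20 to 11.5%. The ranges of these 3 genes did not overlap in any group. Gstz1 and Gstt3 followed at 4.76 to 10.6 FPKM over all libraries. Gstt1 and Gstk1 reached at most 3.14 and 1.77 FPKM and overlapped each other in every group where they were neighbours in the order. The place of Mgst1 moved most: in T-N2G DEM it ranked 4 with 8.21 ± 1.46 FPKM, not separable from Gstz1 at 8.19 ± 0.955 FPKM, whereas in mock DEM it ranked 8 with 0.759 ± 0.541 FPKM (SD, n = 3 each).

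**Figure D1:**
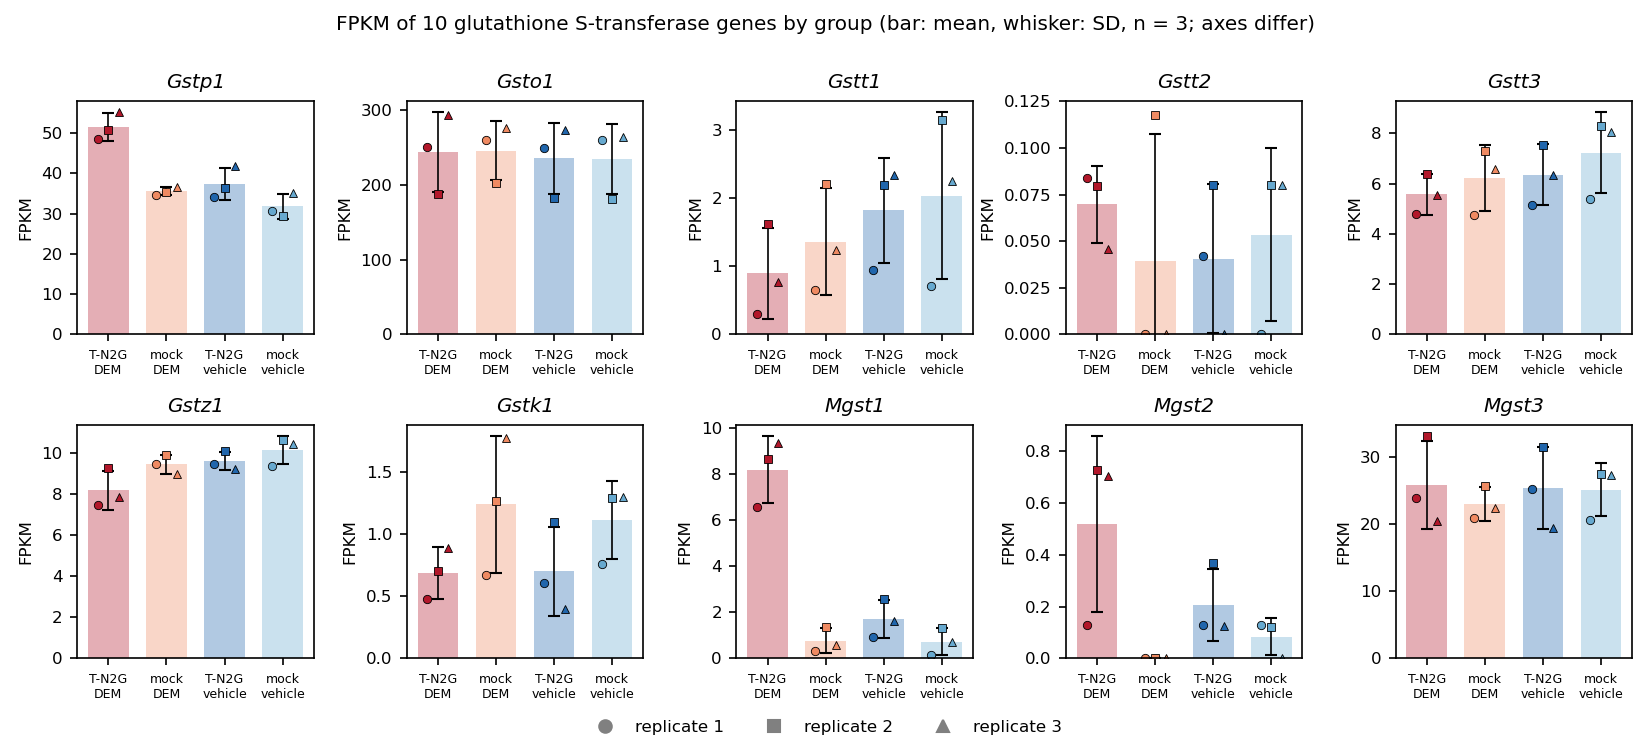
FPKM (vertical axes, which differ between panels) of the 10 genes in the 4 groups; bars are means, whiskers SD over 3 libraries, and symbols single libraries. Mgst1 and Gstp1 in T-N2G DEM lie above the libraries of every other group, while mean levels of Gsto1 are 235 to 246 FPKM in the 4 groups, with replicate 2 lowest in each.

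The summed level of the 10 genes was 346 ± 47.8 FPKM in T-N2G DEM, 324 ± 35.2 in mock DEM, 319 ± 40.7 in T-N2G vehicle and 313 ± 45.2 in mock vehicle (SD, n = 3 each), and the groups differed by less than the spread between replicates. Without Gsto1 the sum was 102 ± 9.54 FPKM in T-N2G DEM, against 77.7 ± 6.03 in mock DEM, 83.3 ± 7.87 in T-N2G vehicle and 78.3 ± 9.35 in mock vehicle (SD, n = 3 each). These sums carry no test.

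Fragment counts were tested for 5 contrasts in one edgeR quasi-likelihood fit of all 12 libraries, with Benjamini-Hochberg adjustment over 12469 genes. A call is an adjusted p under 0.05. Of the 10 genes, 8 passed the filter on low counts; Gstt2 and Mgst2 did not. Each fold change is given on the log2 scale with an approximate standard error. The word block stands for a second fit with the replicate number as a term, since libraries with the same number deviated together. It is named where it changed a call or moved a count. The fit without it leaves that shared deviation in its spread, so a gene not called there is not shown to be unchanged. The contrasts share groups and are not independent of each other.

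Mgst1 encodes microsomal glutathione S-transferase 1, an enzyme of the endoplasmic reticulum and outer mitochondrial membrane that conjugates glutathione and reduces lipid hydroperoxides. It had 99, 138 and 129 fragments in T-N2G DEM replicates 1 to 3, against 5, 22 and 10 in mock DEM, and 14, 41 and 25 in T-N2G vehicle, against 2, 21 and 11 in mock vehicle. The T-N2G DEM libraries lay above all others, and in each group replicate 1 was lowest. Under DEM, T-N2G cells had 10.7-fold more Mgst1 than mock cells, a log2 fold change of 3.42 ± 0.53 (95% interval 2.26 to 4.58, edgeR adjusted p = 0.00262), and higher in each of the 3 pairs with the same replicate number. The fold rests on few mock fragments: it was 17.4 without mock DEM replicate 2 and 8.42 without mock DEM replicate 1, with the call kept. Within T-N2G cells Mgst1 rose 4.76-fold with DEM, a log2 fold change of 2.25 ± 0.48 (95% interval 1.20 to 3.30, edgeR adjusted p = 0.00829).

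In mock cells the log2 fold change of Mgst1 with DEM was 0.06 ± 0.66, with a 95% interval of -1.39 to 1.51 (edgeR adjusted p = 0.961), so that a change of either sign remained within the error. In vehicle, T-N2G cells against mock cells gave a log2 fold change of 1.23 ± 0.60 (edgeR adjusted p = 0.801, or 0.0668 with the block), higher in all 3 pairs but with overlapping groups. Without 1 library this value ranged over 0.75 to 2.00, the highest without mock vehicle replicate 2, and was called in none of these 6 fits. The difference of the DEM effects, T-N2G minus mock, was 2.19 ± 0.83 on the log2 scale (edgeR adjusted p = 0.99993, unadjusted p = 0.0217). With the block it was 2.22 ± 0.54 (edgeR adjusted p = 0.0314), and over all alternatives the adjusted p lay between 0.0314 and 1. Without 1 library and without the block, the difference was 1.41 without mock vehicle replicate 2 and 2.89 without mock DEM replicate 2, the ends of its range over 12 such fits, none of which called it. The larger DEM effect on Mgst1 in T-N2G cells was thus called in 1 of 24 alternative settings, the block fit of all 12 libraries. It was not called without the block, nor with the block in replicates 1 and 2 alone or in replicates 2 and 3 alone.

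Gstp1 encodes the pi-class enzyme, an abundant cytosolic transferase that also binds the stress kinase JNK. It had 533, 589 and 553 fragments in T-N2G DEM replicates 1 to 3, against 381, 416 and 461 in mock DEM, and 375, 420 and 474 in T-N2G vehicle, against 331, 340 and 404 in mock vehicle. The T-N2G DEM libraries again lay above all others, whereas the other 3 groups overlapped. Mean levels were 51.5 ± 3.38 FPKM in T-N2G DEM, 35.6 ± 1.07 in mock DEM, 37.4 ± 3.98 in T-N2G vehicle and 31.8 ± 3.03 in mock vehicle (SD, n = 3 each). Under DEM, T-N2G cells had 1.45-fold more Gstp1 than mock cells (log2 0.54 ± 0.09, edgeR adjusted p = 0.00599). Within T-N2G cells it rose 1.37-fold with DEM (log2 0.46 ± 0.09, edgeR adjusted p = 0.00684).

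The log2 fold change of Gstp1 with DEM in mock cells was 0.16 ± 0.10 (edgeR adjusted p = 0.278, or 0.0568 with the block). In vehicle it was 0.24 ± 0.10 for T-N2G over mock cells, with an edgeR adjusted p of 0.693, or of 0.0401 with the block, so the higher level in T-N2G vehicle was called with pairing and not without. The difference of the DEM effects was 0.30 ± 0.13 (edgeR adjusted p = 0.99993, or 0.116 with the block). Of the 50-base stretches of Gstp1 transcripts in GENCODE vM21, 33.7% also occur in transcripts of Gstp2 or Gstp-ps, so its value is uncertain where such reads were divided. Gstp2 itself had 1 to 4 fragments per T-N2G library and 0 to 2 per mock library.

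**Figure D2:**
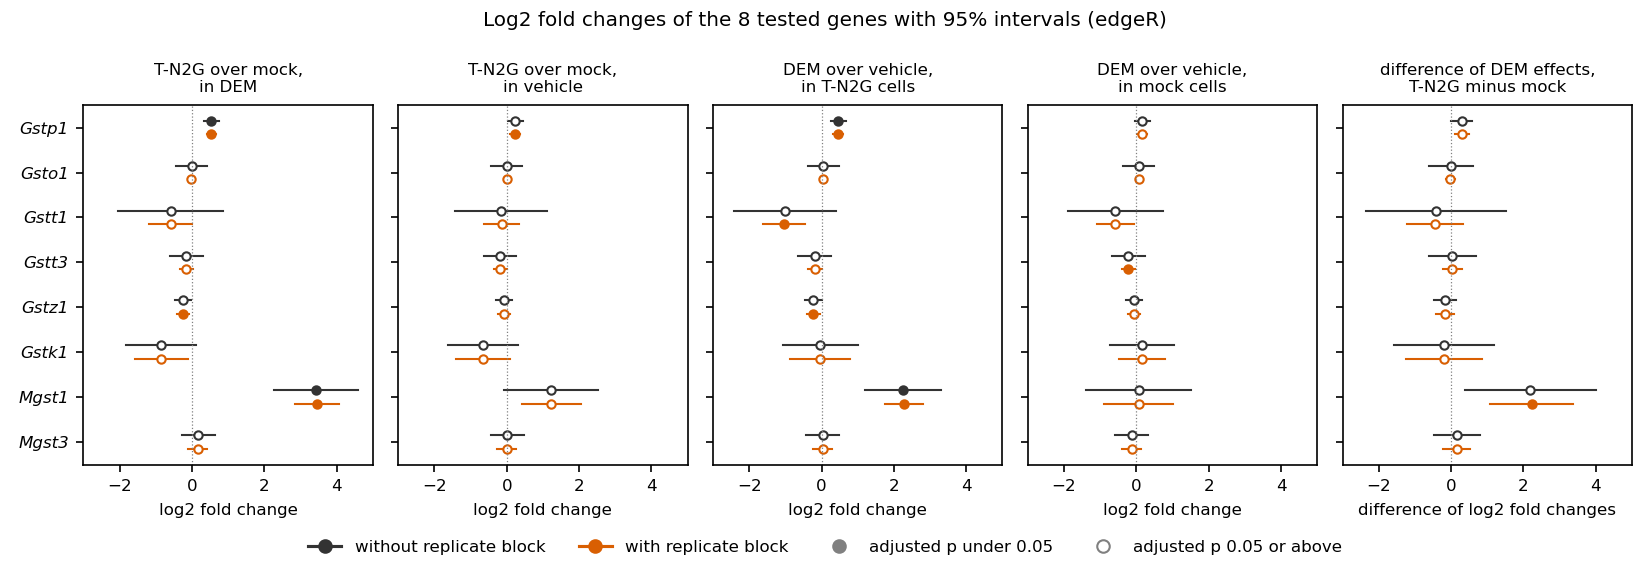
Log2 fold changes (horizontal axes) of the 8 tested genes in the 5 contrasts, with 95% intervals, from edgeR without (dark) and with (orange) the replicate block; filled points have an adjusted p under 0.05. Under DEM, T-N2G over mock, Mgst1 stands at 3.42 and Gstp1 at 0.54, and the intervals narrow with the block while the estimates hardly move.

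The labels' library codes fall into 2 series, that of replicates 1 and 2 and that of replicate 3, which may be batches. In replicates 1 and 2 alone, T-N2G cells against mock cells under DEM gave log2 fold changes of 3.14 for Mgst1 (edgeR adjusted p = 0.217) and 0.51 for Gstp1 (edgeR adjusted p = 0.0509), and with the block the adjusted p values were 2.49e-05 for Mgst1 and 0.000271 for Gstp1. For DEM over vehicle in T-N2G cells they were 2.10 for Mgst1 (edgeR adjusted p = 0.162, or 0.000127 with the block) and 0.49 for Gstp1 (edgeR adjusted p = 0.0348). The other series has 1 library per group, too few for a test of its own.

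For Gsto1, replicate 2 was lowest in all 4 groups. It had 4905, 3887 and 5238 fragments in T-N2G DEM replicates 1 to 3, against 5095, 4221 and 6186 in mock DEM, and 4892, 3751 and 5519 in T-N2G vehicle, against 5018, 3707 and 5392 in mock vehicle. The groups overlapped throughout, and each group's range was wider than any difference between group means. Under DEM, the log2 fold change of Gsto1 in T-N2G against mock cells was -0.01 ± 0.20 (95% interval -0.44 to 0.42, edgeR adjusted p = 0.992), and with the block the interval was -0.11 to 0.07. With DEM the log2 fold change was 0.05 ± 0.20 in T-N2G cells and 0.07 ± 0.20 in mock cells (edgeR adjusted p = 0.875 and 0.857).

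The theta-class enzymes, which act on small halogenated compounds and peroxides, were lower in abundance. Gstt3 had 163, 231 and 173 fragments in T-N2G DEM replicates 1 to 3, against 163, 267 and 258 in mock DEM, and 176, 271 and 224 in T-N2G vehicle, against 181, 297 and 287 in mock vehicle. Replicate 1 was lowest in each group and the groups overlapped. Its log2 fold change with DEM was -0.19 ± 0.21 in T-N2G cells (edgeR adjusted p = 0.577, or 0.101 with the block) and -0.22 ± 0.21 in mock cells (edgeR adjusted p = 0.522, or 0.0475 with the block). The fall in mock cells was thus called with the block only. Of the 50-base stretches of Gstt3 transcripts, 12.5% also occur in transcripts of other genes, among them the overlapping Gm20441, which is not in the table.

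Gstt1 had 5, 29 and 12 fragments in T-N2G DEM replicates 1 to 3, against 11, 40 and 24 in mock DEM, and 16, 39 and 41 in T-N2G vehicle, against 12, 56 and 40 in mock vehicle. Replicate 1 was lowest in each group, and in each pair with the same number the DEM library was below its vehicle library. In T-N2G cells the log2 fold change with DEM was -1.01 ± 0.65 (edgeR adjusted p = 0.313), and with the block it was -1.03 ± 0.27 (edgeR adjusted p = 0.00518), a call that depends on the pairing. Without 1 library and without the block it ranged from -1.78, without T-N2G DEM replicate 2, to -0.60. In mock cells it was -0.58 ± 0.60 (edgeR adjusted p = 0.558, or 0.0593 with the block). The difference of the DEM effects was -0.43 ± 0.89 (edgeR adjusted p = 0.99993, or 0.716 with the block), so a different DEM effect in the 2 kinds of cells was not shown. Gstt2 had 0 to 3 fragments per library and was not tested.

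Gstz1 encodes the zeta-class enzyme, maleylacetoacetate isomerase of tyrosine breakdown, which uses glutathione as a cofactor. It had 230, 302 and 219 fragments in T-N2G DEM replicates 1 to 3, against 297, 335 and 325 in mock DEM, and 297, 322 and 288 in T-N2G vehicle, against 277, 338 and 339 in mock vehicle. All 4 groups overlapped in fragments, and T-N2G DEM had the lowest mean, 8.19 ± 0.955 FPKM against 9.45 ± 0.448 in mock DEM (SD, n = 3 each). Under DEM, the log2 fold change in T-N2G against mock cells was -0.24 ± 0.10 (edgeR adjusted p = 0.291, or 0.0462 with the block). With DEM in T-N2G cells it was -0.22 ± 0.10 (edgeR adjusted p = 0.159, or 0.0331 with the block), and in mock cells it was -0.06 ± 0.10 (edgeR adjusted p = 0.754). Both falls of Gstz1 were called with the block only.

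Gstz1 overlaps Pomt2, a gene of protein mannosylation on the opposite strand, and the strand setting of the counting is not given in the sources used here, so reads of the 2 genes may not have been told apart. Pomt2, looked up after the values of Gstz1 were seen, had 514 to 553 fragments in T-N2G DEM, 629 to 750 in mock DEM, 609 to 717 in T-N2G vehicle and 748 to 792 in mock vehicle. Its log2 fold change with DEM in T-N2G cells was -0.26 (edgeR adjusted p = 0.0234). It was -0.22 with DEM in mock cells (edgeR adjusted p = 0.0501, or 0.00817 with the block). For T-N2G over mock cells it was -0.26 in DEM (edgeR adjusted p = 0.0641, or 0.00784 with the block) and -0.22 in vehicle (edgeR adjusted p = 0.415, or 0.0408 with the block). The estimates of Gstz1 with DEM were -0.22 ± 0.10 in T-N2G cells and -0.06 ± 0.10 in mock cells. For T-N2G over mock cells they were -0.24 ± 0.10 in DEM and -0.07 ± 0.10 in vehicle. Mean levels of both genes were thus lowest in T-N2G DEM, while only Pomt2 was called with the block in vehicle and with DEM in mock cells. The part of Pomt2 in the values of Gstz1 was not tested.

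Gstk1, the kappa-class enzyme of mitochondria, was near the limit of detection. It had 7, 11 and 12 fragments in T-N2G DEM replicates 1 to 3, against 10, 20 and 30 in mock DEM, and 9, 17 and 6 in T-N2G vehicle, against 11, 20 and 20 in mock vehicle. The T-N2G library had the lower CPM (fragments scaled by library size) in every pair with the same number, in DEM and in vehicle, and the groups overlapped. In T-N2G against mock cells the log2 fold changes were -0.86 ± 0.44 in DEM (edgeR adjusted p = 0.404, or 0.0959 with the block) and -0.66 ± 0.44 in vehicle (edgeR adjusted p = 0.941, or 0.308 with the block). Neither was called, and the interval in DEM, -1.82 to 0.10, left room for both a large fall and no change.

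Mgst3, a microsomal enzyme with glutathione transferase and peroxidase activity, followed Gsto1 and Gstp1 in abundance. It had 209, 307 and 164 fragments in T-N2G DEM replicates 1 to 3, against 184, 241 and 224 in mock DEM, and 221, 290 and 175 in T-N2G vehicle, against 178, 253 and 250 in mock vehicle. The groups overlapped, with means of 25.9 ± 6.54 FPKM in T-N2G DEM, 23.0 ± 2.48 in mock DEM, 25.4 ± 6.09 in T-N2G vehicle and 25.2 ± 3.93 in mock vehicle (SD, n = 3 each). T-N2G against mock cells under DEM gave a log2 fold change of 0.17 ± 0.21 (95% interval -0.28 to 0.63, edgeR adjusted p = 0.798). The intervals of Mgst3 and Mgst1 in this contrast did not overlap.

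Mgst2, an enzyme that can also form leukotriene C4, had 1, 6 and 5 fragments in T-N2G DEM replicates 1 to 3, against 0, 0 and 0 in mock DEM, and 1, 3 and 1 in T-N2G vehicle, against 1, 1 and 0 in mock vehicle. With 12 fragments over T-N2G DEM and a floor of 3 counts in place of 0 over mock DEM, the ratio was 4.34. That ratio takes the 12 fragments as exact and leaves out the spread between libraries, so it is a rough value and not a lower bound. It did not pass the filter, and in a fit with no filter the edgeR adjusted p was 0.0763. At this depth a difference of Mgst2 was therefore not called.

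**Figure D3:**
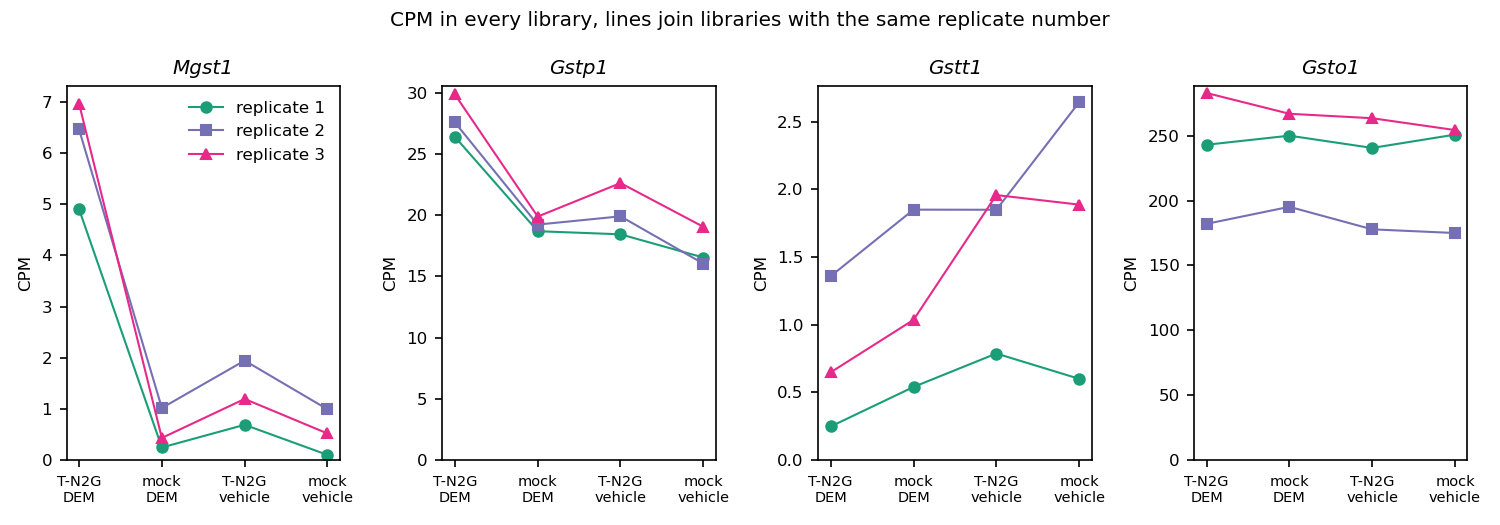
CPM (fragments scaled by library size, vertical axes from 0) of Mgst1, Gstp1, Gstt1 and Gsto1 in every library; lines join libraries with the same replicate number and groups stand along the horizontal axis. For Mgst1 and Gstp1 all 3 T-N2G DEM libraries exceed the rest, whereas for Gsto1 the line of replicate 2 lies below the other two in every group and the lines of replicates 1 and 3 nearly meet in mock vehicle.

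Counted over the tested genes, T-N2G against mock cells under DEM called 2 of 8 higher, Mgst1 and Gstp1, and 0 lower, where 2.61% of all tested genes were called higher and 1.11% lower. With the block, Gstz1 was added as lower, where 10.3% of all genes were called higher and 9.32% lower. DEM over vehicle in T-N2G cells called the same pair higher and 0 lower, where 10.1% of all genes were called higher and 7.55% lower. With the block Gstt1 and Gstz1 were added as lower, where 22.8% of all genes were called higher and 22.2% lower. In CPM, the groups of 3 did not overlap for Mgst1 and Gstp1 in either contrast, where 10.3% of all genes against mock cells and 18.2% with DEM were higher without overlap. With 8 genes tested, a count of 2 is coarse beside either share.

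In the other contrasts edgeR called 0 of the 8. In vehicle, 1 gene (Gstp1) had an unadjusted p under 0.05 for T-N2G over mock cells, DESeq2 and limma called 0, and 0.305% of all genes were called higher and 0.00802% lower. With the block 1 was called there, Gstp1, where 3.06% of all genes were called higher and 3.24% lower. For DEM over vehicle in mock cells 0 genes had an unadjusted p under 0.05, DESeq2 and limma called 0, and 7.76% of all genes were called higher and 6.18% lower. With the block 1 was called lower there, Gstt3, where 20.9% of all genes were called higher and 21.9% lower. For the difference of the DEM effects, 2 genes (Mgst1 and Gstp1) had an unadjusted p under 0.05, DESeq2 and limma called 0, and 0.417% of all genes were called higher and 0.016% lower. With the block 1 was called, Mgst1, where 1.82% of all genes were called higher and 0.978% lower. The median log2 fold change of the 8 genes lay between -0.08 and 0.01 in the 5 contrasts, against -0.01 to 0.00 over all tested genes.

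Over the 12 libraries the log2 CPM of Mgst1 and Gstp1 varied together (Pearson r = 0.861), as did that of Gstt1 and Gstt3 (r = 0.913). Gsto1 and Mgst3 varied in opposite directions (r = -0.826). Among all tested genes the 3 most like Gstp1 were Gsta3, an alpha-class transferase (r = 0.960), Procr, the protein C receptor (r = 0.957), and Hmox1, heme oxygenase 1 (r = 0.955). Those most like Mgst1 were Tubb2a, a beta tubulin (r = 0.960), Osgin1 (r = 0.955) and Mest (r = 0.950). These values describe 12 libraries that share groups, replicate numbers and depth.

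The cytosolic enzymes share their fold with the alpha and mu classes. Of 7 tested genes of these classes, 5 were higher under DEM in T-N2G than mock cells and 0 lower. Among all tested genes 2.61% were called higher there and 1.11% lower. Of the 5, Gsta1 and Gsta3 passed the filter on low counts through their T-N2G DEM libraries alone, so their calls add no support. The median log2 fold change of these classes was 3.41, the value of Gsta3, against -0.00 over all genes. Gsta1 had 0 fragments in mock DEM. Set to a floor of 3 counts there, it stays above Gsta3, so the median could not move. The other tested genes stood at 7.30 (Gsta4), 4.88 (Gstm1), 1.24 (Gstm2), 0.32 (Gstm4) and 0.07 (Gstm5) on the log2 scale. Gsta4, which conjugates 4-hydroxynonenal, was 158-fold higher (edgeR adjusted p = 1.62e-07) and Gstm1 29.4-fold (edgeR adjusted p = 2.30e-06). With DEM in mock cells edgeR called 0 of the 7 (1 at an unadjusted p under 0.05), or 1 lower with the block. There 7.76% of all tested genes were called higher and 6.18% lower, or 20.9% and 21.9% with the block. Of 4 tested close relatives of the 10 genes edgeR called 0 in each contrast (0 or 1 at an unadjusted p under 0.05). With the block 1 was higher under DEM in T-N2G than mock cells, Ptges, the inducible microsomal prostaglandin E synthase (log2 1.13 ± 0.31, edgeR adjusted p = 0.0143, or 0.0730 without the block). In vehicle its log2 fold change for T-N2G over mock cells was 0.94 ± 0.30 (edgeR adjusted p = 0.434, or 0.0592 with the block). With the block Gstcd and Ptges2 rose with DEM in mock cells, where 20.9% of all tested genes were called higher. Under DEM, 10.3% of all tested genes were called higher in T-N2G than mock cells with the block. The most abundant relative, Ptges2, another prostaglandin E synthase, had a log2 fold change of -0.18 ± 0.09 in T-N2G against mock cells under DEM (edgeR adjusted p = 0.408).

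**Figure D4:**
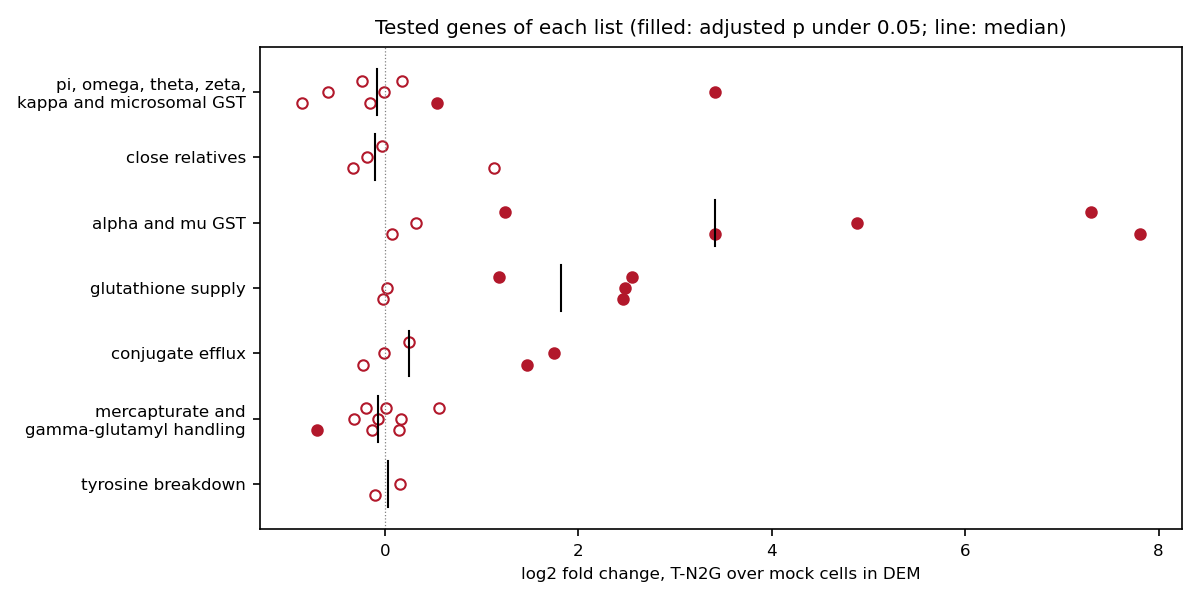
Log2 fold change in DEM, T-N2G over mock (horizontal axis) for the tested genes of each list (rows, the 10 genes described here on top); filled points have an edgeR adjusted p under 0.05 and vertical lines mark medians. The medians are -0.08 for the genes described here and 3.41 for the alpha and mu classes. The latter is the value of Gsta3, which, like Gsta1, passed the filter on low counts through T-N2G DEM alone.

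Genes that supply glutathione had 4 of 6 higher under DEM in T-N2G than mock cells and 0 lower, with a median log2 fold change of 1.82. They included Gclc, 5.59-fold, and Gclm, 5.51-fold, the subunits of glutamate-cysteine ligase (edgeR adjusted p = 1.62e-07 for both), and the cystine transporter Slc7a11, 5.85-fold (edgeR adjusted p = 3.27e-06). With DEM, 6 of the 6 rose in T-N2G cells and 3 of the 6 in mock cells, there Gss, Slc3a2 and Slc7a11 (5 of the 6 with the block). Of all tested genes, 2.61% were called higher under DEM in T-N2G than mock cells. With DEM 10.1% were called higher in T-N2G cells and 7.76% in mock cells, or 20.9% in mock cells with the block. Of 5 tested efflux transporters, 2 were higher under DEM in T-N2G than mock cells, Abcc4 3.36-fold and Abcc1 2.77-fold (edgeR adjusted p = 1.62e-07 and 3.95e-05), with a median of 0.25 and 3 higher and 1 lower with the block. Of all tested genes, 10.3% were called higher with the block in T-N2G than mock cells under DEM and 9.32% lower. Abcc1, known as a pump for glutathione conjugates, did not pass in vehicle without the block (log2 0.39 ± 0.14, edgeR adjusted p = 0.560, or 0.000788 with it).

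The genes that process glutathione conjugates to mercapturates or cleave gamma-glutamyl bonds had 0 of 9 higher and 1 lower under DEM in T-N2G than mock cells, with a median log2 fold change of -0.07. The lower gene was Chac1, which degrades glutathione (log2 -0.70 ± 0.13, edgeR adjusted p = 0.00955). Of all tested genes, 2.61% were called higher there and 1.11% lower. With DEM, Acy1, an aminoacylase, rose 1.21-fold in T-N2G cells (edgeR adjusted p = 0.0287) and 1.30-fold in mock cells (edgeR adjusted p = 0.00944), and Chac1 rose 2.35-fold in mock cells (edgeR adjusted p = 0.000598). Acy3, an aminoacylase as well, fell by 0.89 ± 0.27 on the log2 scale with DEM in mock cells (edgeR adjusted p = 0.0463), so that 2 of the 9 genes were called higher there and 1 lower. Of all tested genes, 7.76% were called higher in mock cells and 6.18% lower. In T-N2G cells 1 was called higher and 0 lower, where 10.1% of all tested genes were called higher and 7.55% lower. With the block 2 were higher there, Acy1 and Chac1, and 2 lower, Acy3 and Ggt7. The shares of all tested genes were then 22.8% and 22.2%, so these counts stayed near the shares. With the block 2 were also lower in mock cells, Acy3 and Cndp2, where 21.9% of all tested genes were called lower. Of the 6 genes listed with tyrosine breakdown, the pathway of Gstz1, 2 were tested, Fah of the pathway and its relative Fahd1. Of these, 0 were called by edgeR between the T-N2G and mock groups under DEM (0 at an unadjusted p under 0.05), and Fah, the enzyme after Gstz1 in the pathway, had a log2 fold change of -0.10 ± 0.16 (edgeR adjusted p = 0.848). With DEM in mock cells Fahd1, a relative of Fah that decarboxylates oxaloacetate, fell by 0.54 ± 0.12 on the log2 scale (edgeR adjusted p = 0.0131). With the block Fah was also called lower there (log2 -0.28, edgeR adjusted p = 0.0321, or 0.251 without the block). Fahd1 was then called lower with DEM in T-N2G cells too (log2 -0.30, edgeR adjusted p = 0.0256, or 0.102 without the block).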

How the data were processed

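RNA of 12 libraries in 4 groups of 3 was analysed from 1 deposited table. Per the submitters' processing notes Cuffdiff 2.1.1, TopHat2 2.0.8b and bcl2fastq 2.16.0.10 were used, with build mm9; roles, annotation and strand setting are not given in the sources used here. The labels give the RNeasy Mini kit and the SureSelect strand-specific poly(A) kit. The authors deposited, per gene and library, an estimated count of fragments (98.3% of values whole; all values of the 10 genes whole) and FPKM, scaled by the authors for length and library size. The 2 other value columns per library were not used.

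Counts were rounded and fitted with edgeR 4.0.16 in R 4.3.3: filterByExpr (minimum count 10, minimum total 15) left 12469 genes and took out 11849, TMM factors were 0.980 to 1.028, and 5 contrasts of 1 quasi-likelihood fit (8 residual degrees of freedom, common biological coefficient of variation 0.110) were adjusted by Benjamini-Hochberg over all tested genes, a call being adjusted p under 0.05. Standard errors, approximate, are |log2 fold change|/√F of the quasi-likelihood test. CPM used effective library sizes, intervals cover the fit's spread at 95%, and floors are 3 counts over a group. limma 3.58.1 on log2(FPKM + 1) and log2(FPKM + 0.1) and DESeq2 1.42.0 were alternatives.

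Replicate numbers are in the sample titles. In deviations from group means, 18 library pairs with the same number had r of 0.361 to 0.631 and 36 with different numbers -0.422 to -0.00363. Deviations cancel within a group, so the negative values follow in part from the positive ones. Libraries with the same number thus deviated together, and the labels do not say why. The fit with the number as a block (6 residual degrees of freedom, coefficient of variation 0.0428) is an alternative. Fits of replicates 2 and 3 alone and the comparison with Pomt2 were added after the data were seen.

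The members, lists and tests were chosen with earlier results of these data known. All 10 genes are named. Per other list and contrast, up to 3 called genes with the smallest adjusted p could be named, or the most abundant where none was called, and for each of the 10 called in a contrast the 3 most correlated genes. Promoters (RefSeq, GRCm38.p6) were matched by symbol and searched on both strands. The scripts were tested on simulated data.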

Additional observations from a re-analysis of the deposited data

Results flagged for a closer look

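The difference of the DEM effects on Mgst1, T-N2G minus mock, was picked out because the test of the difference itself passed with the replicate number as a block. It was 2.224 on the log2 scale there (standard error 0.54, edgeR adjusted p = 0.0314), from a log2 fold change with DEM of 2.29 in T-N2G cells and 0.06 in mock cells. Without the block it was 2.19 and the edgeR adjusted p was 0.99993, and by DESeq2 the adjusted p was 0.518. Of 24 alternative settings, the block fit of all libraries was the 1 that called it. Without 1 library and without the block it ranged from 1.41 (without mock vehicle replicate 2) to 2.89 (without mock DEM replicate 2). Mock libraries held 2 to 22 fragments of Mgst1, and the cause of the difference was not tested.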

How the results depend on the processing

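Mgst1 and Gstp1 kept both calls, T-N2G over mock cells in DEM and DEM over vehicle in T-N2G cells, under RLE and upper-quartile factors, no filter on low counts, at least 1 CPM in 3 libraries, DESeq2, limma on FPKM, a fit of the compared groups alone, the block, and without each library in turn. Without 1 library, the number of the 8 genes called stayed at 2 for each of these contrasts and at 0 for the others, with log2 fold changes of 3.07 to 4.12 and 1.96 to 2.68 for Mgst1 and 0.48 to 0.58 and 0.39 to 0.54 for Gstp1. With the replicate block the number called was 1 for T-N2G over mock cells in vehicle, 3 in DEM, 4 for DEM over vehicle in T-N2G cells, 1 in mock cells and 1 for the difference of the DEM effects. Fits of 2 replicates have fewer libraries: T-N2G over mock cells in DEM called 0 in replicates 1 and 2 and 1 in replicates 2 and 3, DEM over vehicle in T-N2G cells 1 in each, and in mock cells 1 in replicates 1 and 2 with the block. Calls were lost for Gstp1 in replicates 2 and 3 (log2 0.5563, adjusted p = 0.0993, in DEM; 0.4341, adjusted p = 0.0980, with DEM) and kept there with the block (adjusted p = 0.000537 and 0.00162).

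Signs turned only for values not called, and for these the cause was not tested. In replicates 1 and 2 alone, without and with the block, T-N2G over mock cells in vehicle gave -0.02489 and -0.01961 for Gsto1 and 0.003347 and 0.004709 for Gstz1, DEM in mock cells -0.07564 and -0.07719 for Gstk1 and 0.01266 and 0.0135 for Gstz1, and the difference of the DEM effects -0.005811 and -0.001652 for Gstt3. In replicates 2 and 3 alone, likewise, the values were -0.09901 and -0.1201 for Mgst3 in vehicle, 0.0820 and 0.07795 for Gstk1 with DEM in T-N2G cells and -0.0702 and -0.07228 for Mgst1 with DEM in mock cells, and 0.01146 for Gsto1 in DEM without the block. limma with pseudocounts 1 and 0.1 gave -0.00286 and -0.003497 for Mgst3 in vehicle and 0.005229 and 0.04305 for Gstk1 with DEM in T-N2G cells, and upper-quartile factors -0.001627 for Mgst3 there. Leaving out 1 library gave, for T-N2G over mock cells in vehicle, -0.1546 to 0.1563 for Gsto1, -0.5624 to 0.2884 for Gstt1 and -0.1753 to 0.177 for Mgst3; in DEM -0.1635 to 0.1407 for Gsto1 and -0.05622 to 0.3105 for Mgst3; with DEM in T-N2G cells -0.3228 to 0.4482 for Gstk1, -0.105 to 0.2075 for Gsto1 and -0.195 to 0.2167 for Mgst3; in mock cells -0.1905 to 0.4426 for Gstk1, -0.08812 to 0.1958 for Gsto1 and -0.6432 to 0.8395 for Mgst1; and for the difference of the DEM effects -0.4815 to 0.2816 for Gstk1, -0.1731 to 0.1377 for Gsto1, -1.209 to 0.08224 for Gstt1, -0.1345 to 0.2043 for Gstt3 and -0.0715 to 0.3408 for Mgst3. Gstk1 had no value under the filter of 1 CPM. Depth limits Mgst1 in mock cells, Gstt1, Gstk1, Gstt2 and Mgst2.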
